A study of Homo sapiens with 2 samples.

Results

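The IFITM genes encode small interferon-induced membrane proteins, and IFITM1, IFITM2, IFITM3, IFITM5 and IFITM10 were followed here on arrays of HT-29 cells. Every probe set whose gene annotation named one of these 5 genes, alone or with another IFITM gene, was taken, which gave 7 probe sets out of 54613 that are not array controls. They named 4 of the 5 genes, among 19775 genes measured in all. No probe set in the annotation used here named IFITM5, which was not analysed here. HT-29 is an established human colorectal adenocarcinoma line. The control culture (siLuc) was transfected with an siRNA to firefly luciferase, which human cells do not have, and the knockdown culture (siIFITM1) with an siRNA to IFITM1. RNA of both was taken at 72 h. Each siRNA was read on 1 array, so the spread between cultures is unknown and differences are described by size, without a test.

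IFITM proteins sit in cell membranes and hinder the fusion of enveloped viruses with the cell. They share a CD225 domain, which crosses or enters the membrane. IFITM1 is found mostly at the cell surface, while IFITM2 and IFITM3 are found mostly in endosomes. Interferon induces all 3 through the interferon-stimulated response element (ISRE), a promoter sequence bound by transcription factors of the interferon response such as IRF9. IFITM5 is known as a bone gene of osteoblasts and is not induced by interferon in the same way. IFITM10 is a more distant member whose function is not well established. In colorectal tumours IFITM1 is often expressed above the level of normal mucosa.

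IFITM5, IFITM2, IFITM1 and IFITM3 follow each other in this order on human chromosome 11 in the RefSeq gene table, and IFITM10 lies farther along the same chromosome. The promoters of IFITM1 and IFITM3, whose probe sets were both lower with siIFITM1, are shown beside that of IFITM5, which has no ISRE core. The comparison is of sequence only, since no probe set named IFITM5 and its promoter has no ratio beside it. Promoter sequences came from RefSeq, build GRCh38.p14, which held entries for 3 of the 5 genes, and IFITM2 and IFITM10 had none. Each stretch is 150 bases long, from 140 bases before the annotated start to 10 bases after it, read 5′ to 3′ on the strand of the gene. Capitals mark the ISRE core, spelled GAAA, any 2 bases, GAAA, which was searched on both strands and was the only motif searched. The stretches are chr11:313900-314049 on the plus strand for IFITM1, chr11:320851-321000 on the minus strand for IFITM3 and chr11:299517-299666 on the minus strand for IFITM5.
IFITM1: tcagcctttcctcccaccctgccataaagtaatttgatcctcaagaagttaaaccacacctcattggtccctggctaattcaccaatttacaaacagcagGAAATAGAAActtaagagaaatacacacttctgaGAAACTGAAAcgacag
IFITM3: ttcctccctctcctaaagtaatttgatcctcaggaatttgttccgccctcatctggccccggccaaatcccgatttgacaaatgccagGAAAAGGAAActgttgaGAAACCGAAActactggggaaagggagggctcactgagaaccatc
IFITM5: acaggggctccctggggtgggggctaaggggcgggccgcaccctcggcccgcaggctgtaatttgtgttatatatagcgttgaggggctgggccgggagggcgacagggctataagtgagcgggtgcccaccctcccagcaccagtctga

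The IFITM1 and IFITM3 windows of 300 bases (250 before the start and 50 after it) each held 2 ISRE cores, all on the strand of the gene. In IFITM1 the first core lay 40 to 31 bases before the start, and the second ran from 6 bases before the start to the 4th base after it. In IFITM3 they lay 52 to 43 and 35 to 26 bases before the start. The first letters of the cores were 34 bases apart in IFITM1 and 17 bases apart in IFITM3. The IFITM5 window held 0. Among all 27305 promoters of this length in the table, 996 (3.65%) held at least 1 ISRE core and 74 held more than 1. Over the 250 bases before the start, IFITM1 and IFITM3 were identical at 66.8% of 268 alignment columns. IFITM5 matched IFITM1 at 47.0% of 298 columns and IFITM3 at 47.8% of 297. GC content over the same bases was 45.2% for IFITM1, 54.0% for IFITM3 and 68.0% for IFITM5.

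The values are MAS5 signals, a summary of probe intensities per probe set on a linear scale. Both arrays had a trimmed mean of 500.1, and their median signals were 63.9 (siLuc) and 59.7 (siIFITM1). A probe set passed the filter on dim signals if its geometric mean over both arrays reached 57.4, the median of all probe sets, and it is called brighter from the 75th percentile, 393. The 18 hybridisation control probe sets had log2 ratios from -0.13 to 0.05, and the 24 poly-A control probe sets from -0.38 to 0.35 (median -0.11). As a sign of RNA integrity, 3′ over 5′ log2 ratios were -0.13 (siLuc) and -0.11 (siIFITM1) for GAPDH and 0.12 and 0.13 for ACTB. Of 12 markers of colonic epithelium, 10 were among the brighter genes and all 10 lay within -0.17 to 0.36 in log2 ratio. CDX1 and CDX2, transcription factors of the intestine, were below the filter on both arrays. Of 8 measured leukocyte and blood markers only LYZ was a brighter gene, and it also took most of that list's summed signal of 24772 (siLuc) and 21282 (siIFITM1), while PTPRC, CD3E, CD2 and MS4A1 did not pass the filter. CD79A (306 to 177, -0.79) and CD14 (232 to 185, -0.33), dim genes past the filter, were lower, and HBB was higher (93.1 to 141, 0.59). None of 10 fibroblast and endothelial markers was a brighter gene, and their signals summed to 866 and 962. Of the 5 past the filter LUM was higher (132 to 386, 1.54), and COL1A1 (-0.49), DCN (-0.51), PECAM1 (-0.24) and CLDN5 (-0.83) were lower, a median of -0.49. Their part in the IFITM values was not tested.

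The 4 probe sets that name IFITM1, IFITM2 or IFITM3 were all lower with siIFITM1. The probe set that names IFITM1 alone, the target of the siRNA, read 640 with siLuc and 237 with siIFITM1. This left 37.1% of the baseline signal, a log2 ratio of -1.43. The probe set that names both IFITM2 and IFITM1 read 322 and 142, which left 44.3% (log2 ratio -1.18). Both probe sets that name the target were therefore more than 2-fold lower. Since these are bulk RNA samples, fewer cells with the transcript and less transcript per cell cannot be told apart.

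IFITM2, the member that follows IFITM5 on the chromosome and whose product acts in endosomes, read 1177 with siLuc and 481 with siIFITM1. It kept 40.9% of its signal, 2.45-fold lower (log2 ratio -1.29). IFITM3, the member best known for restricting influenza virus, read 1525 and 490. It kept 32.1%, 3.11-fold lower (log2 ratio -1.64). Neither of these genes was named as a target of the siRNA in the labels. IFITM3 had a lower ratio than either probe set that names IFITM1.

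**Figure D1:**
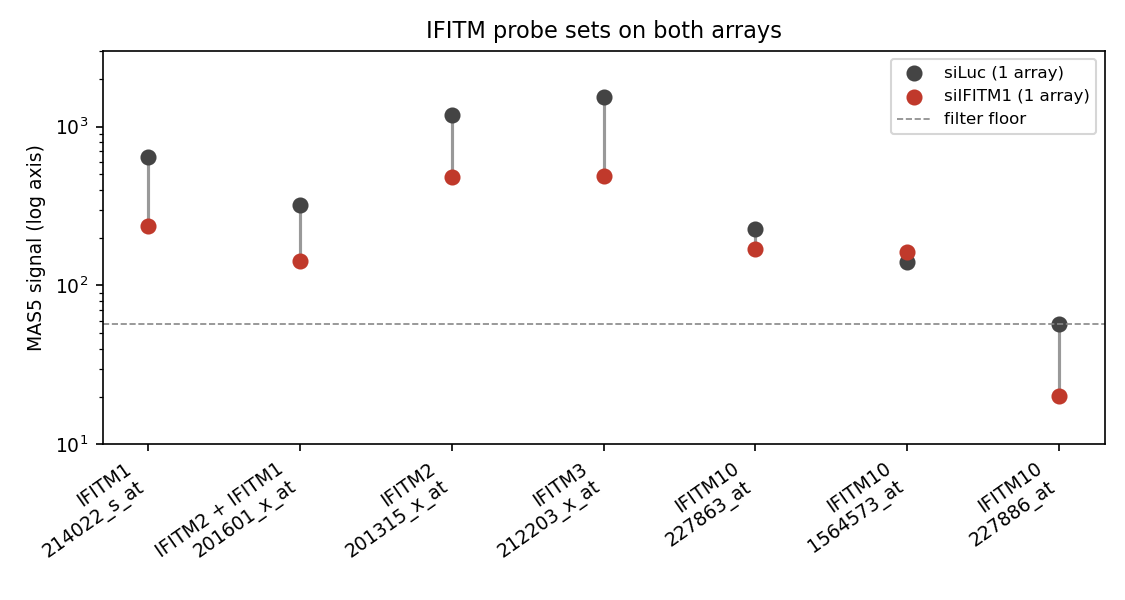
MAS5 signal (log axis) of the 7 IFITM probe sets on the siLuc array (grey) and the siIFITM1 array (red), 1 array each, with the filter floor of 57.4 as a dashed line. The 4 probe sets of IFITM1, IFITM2 and IFITM3 lie between 322 and 1525 with siLuc and between 142 and 490 with siIFITM1, while the 3 IFITM10 probe sets do not move together.

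These 4 ratios differed among themselves by 0.12 to 0.46. The smallest gap was between IFITM2 and the probe set shared by IFITM2 and IFITM1. The largest was between that shared probe set and IFITM3. For scale, 9693 pairs of probe sets of the same gene, at signals at least as high as the dimmest of the 4 (geometric mean 214), had a median difference in log2 ratio of 0.19. Of these pairs 13.99% were 0.46 or more apart and 66.4% were 0.12 or more apart. The gap of 0.21 between IFITM3 and IFITM1 was reached by 45.8% of the pairs, the gap of 0.14 between IFITM2 and IFITM1 by 60.5%, and the gap of 0.35 between IFITM2 and IFITM3 by 24.5%. The probe sets of the 3 genes thus differed no more than many probe sets of 1 gene did.

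IFITM10 was read by 3 probe sets, which did not share a direction. The probe set 227863_at read 228 with siLuc and 170 with siIFITM1 (log2 ratio -0.42), and 1564573_at read 140 and 163 (0.23). The gap of 0.65 between them was reached by 32.1% of 4790 pairs of probe sets of 1 gene in the same range of signal. The third, 227886_at, read 57.6 and 20.1 (-1.52), with a geometric mean of 34.0 that did not pass the filter. With both signals raised to the filter floor its log2 ratio was -0.0066, so its size rests on a siIFITM1 signal below that floor. No direction common to the IFITM10 probe sets was measured.

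The 7 probe sets also differ in the ending of their ID, which records how the array's designers rated the probes. An ID ending in _at marks probes designed to match 1 transcript. In _s_at the probes match several transcripts, often of 1 gene or family, and in _x_at some probes also match other sequences. IFITM2, IFITM3 and the shared probe set carry _x_at, and IFITM1 carries _s_at. The 3 IFITM10 probe sets carry _at. All 4 probe sets that were at least 2-fold lower past the filter are therefore of the kinds that share probes, and whether each reads more than its named gene was not tested, since probe sequences were not used here.

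At least 2-fold lower signals were found for 5 of the 7 member probe sets, against 14% of all 54613 probe sets, a share that is dominated by dim ones. Past the filter the count was 4 of 6 members, against 2.2% of 27307 probe sets. Among brighter probe sets it was both members, IFITM2 and IFITM3, against 0.0952% of 13654. The IFITM1 probe set had a geometric mean of 390, just under the 75th percentile. Of 1430 brighter probe sets with the ending _x_at, 4 (0.28%) were 2-fold lower, and IFITM3 and IFITM2 were 2 of these. The share was 0.078% of 5125 ending in _s_at and 0.0722% of 6928 ending in _at. The median log2 ratio of the brighter _x_at probe sets was -0.06, and it was 0.01 over those ending in _at.

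Each probe set was ranked among the 500 others nearest to it in geometric mean signal. For IFITM3 the lowest of these neighbours had a log2 ratio of -0.91, for IFITM2 it was -0.78 and for IFITM1 it was -1.03, so each of the 3 had the lowest ratio of its neighbourhood. With neighbours taken by siLuc signal this held for IFITM3 only, and 0.20% of neighbours were as low as IFITM2 and 0.40% as low as IFITM1. In units of the SD of the neighbours' ratios, and counted from their median, IFITM3 lay at -6.31, IFITM2 at -4.35 and IFITM1 at -4.10. The probe set shared by IFITM2 and IFITM1 ranked 2 from the lowest, at -2.58 SD, where the spread between dimmer probe sets was wider (SD 0.44, against 0.26 around IFITM3). For IFITM10 the ranks were 355 (1564573_at), 109 (227863_at) and 54 (227886_at), inside the bulk of probe sets with similar signal. In the neighbourhood of 227886_at, 87 of 500 probe sets were 2-fold lower. These ranks describe the 2 arrays and include no variation between cultures.

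**Figure D2:**
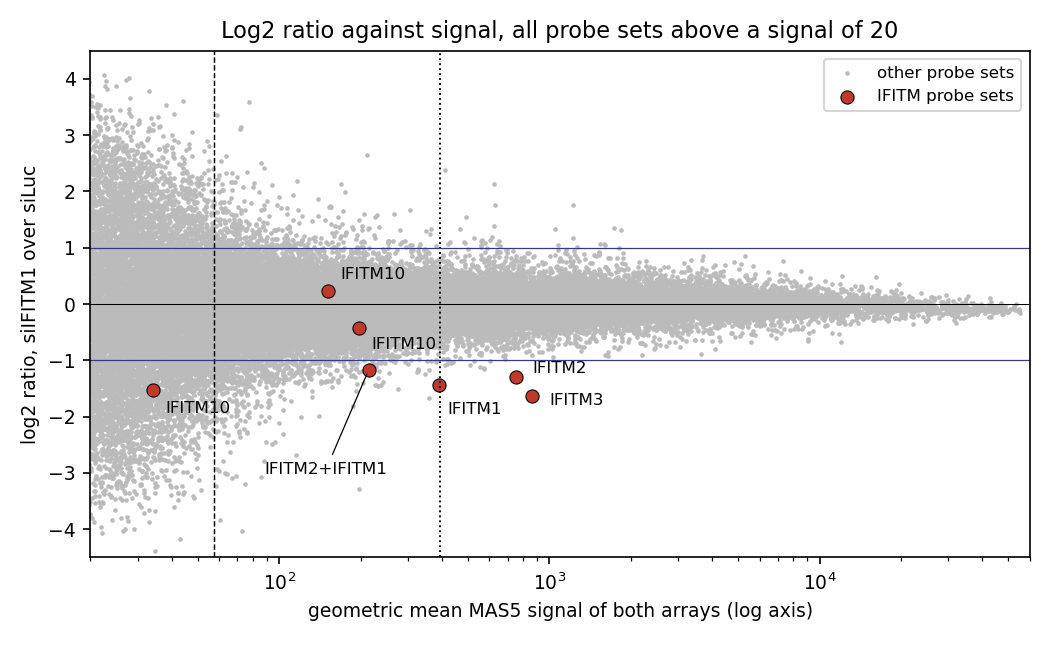
Log2 ratio (siIFITM1 over siLuc) against the geometric mean signal of both arrays (log axis), with IFITM probe sets in red and other probe sets above a signal of 20 in grey. The dashed and dotted vertical lines are the filter floor (57.4) and the 75th percentile (393), and the blue lines are 2-fold; IFITM1, IFITM2 and IFITM3 lie at or under the lower edge of the grey cloud at their signal, and the 3 IFITM10 probe sets lie inside it.

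Among the 13654 brighter probe sets, 1 had a lower ratio than IFITM3, a probe set ending in _x_at for the core histone gene H2BC5 (from 1136 to 309, log2 ratio -1.88). IFITM2 came directly after IFITM3. A wider view took the 17395 probe sets at least as bright as the dimmest of the 4 IFITM1, IFITM2 and IFITM3 probe sets, a bound chosen after their values were seen. In it, 20 had a ratio of -1.18 or lower, and 4 of the 20 were these IFITM probe sets. The line of -1.18 is the highest ratio of these 4, so their presence among the 20 was fixed by the choice of bounds. The other 16 came from genes such as GIGYF2 (641 to 201), ETFRF1 (464 to 163) and NUPR1 (492 to 213).

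At the level of genes, likeness was measured as the absolute difference in log2 ratio from -1.45, the mean of the IFITM1, IFITM2 and IFITM3 probe sets that name 1 gene, over the 2 samples. Among the 7793 brighter genes, IFITM genes left out, the nearest was MUC5AC, a gel-forming mucin gene (from 858 to 385, difference 0.30). Another MUC5AC probe set was at 0.25. CEMIP, a hyaluronan-binding protein gene (844 to 386, difference 0.32), and RARG, a retinoic acid receptor gene (595 to 283, difference 0.38), followed. FBXL15 (627 to 308) and FOXA2, an endodermal transcription factor gene (743 to 370), came next. None of the 5 reached the ratio of any of the 3 IFITM genes. This search left out dimmer genes, although the IFITM1 probe set itself lies just under the line for brighter ones. Under that line some probe sets lay nearer to -1.45, such as those of ZNF318 (383 to 140, -1.45) and CNTROB (394 to 145, -1.44). A likeness over 2 samples is only that of 1 ratio.

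Genes next to the IFITM cluster on chromosome 11 did not share its low ratios. The annotated genes directly beside it are PGGHG, which read 598 with siLuc and 721 with siIFITM1 (log2 ratio 0.27), and B4GALNT4, a glycosyltransferase gene, which read 102 and 76.4 (-0.42). Of the 13 neighbours that passed the filter, 3 toward the near end of the chromosome and 10 on the other side, 7 were below 0 and 6 above. On the brightest probe set of each gene, their median was -0.02 and their range -0.42 to 0.28. Other probe sets past the filter reached -0.70 for SIRT3 and 0.49 for RNH1. The neighbours included SIRT3, a mitochondrial deacetylase gene (-0.27), PKP3, a desmosomal plakophilin gene (0.28), SIGIRR, an inhibitor of interleukin receptor signalling (0.16), and HRAS (-0.02). None was 2-fold lower, where 2.01% of the 12225 genes past the filter were, or 2-fold higher, where 1.01% were.

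**Figure D3:**
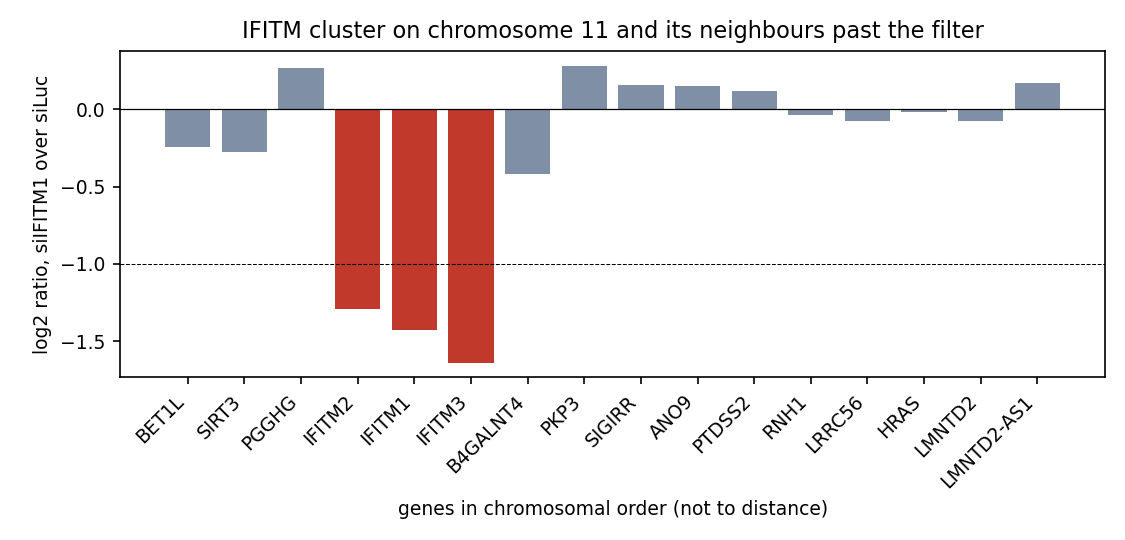
Log2 ratio (siIFITM1 over siLuc) of the IFITM cluster (red, brightest probe set naming that gene alone) and of its 13 neighbours past the filter (grey) in chromosomal order, not to distance, with the 2-fold line dashed. IFITM2, IFITM1 and IFITM3 stand at -1.29, -1.43 and -1.64 and the neighbours lie between -0.42 and 0.28.

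Around IFITM10, 17 of the 20 nearest genes past the filter, 10 on each side, were below 0, with a median of -0.22, where 52.6% of all genes past the filter were below 0. CTSD, the cathepsin D gene directly beside it, read 1114 and 952 (-0.23), and DUSP8, the nearest on the other side past the filter, read 228 and 202 (-0.17). Of the 20, 1 was 2-fold lower, MUC5AC (-1.16), and 1 was 2-fold higher, the mucin gene MUC6, which read 22.3 with siLuc, below the filter floor, and 268 with siIFITM1 (3.59). These counts use the brightest probe set of each gene. Other probe sets past the filter reached 1.14 for DUSP8, 0.80 for TOLLIP, 0.25 for MUC5AC and -1.27 for CDKN1C. The brightest IFITM10 probe set, at -0.42, lay within the range of these neighbours.

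The IFITM genes were then set beside genes of interferon receptors and signalling, a list that mixes activators with inhibitors such as SOCS1 and USP18. Of 21 listed interferon receptors and signalling genes, 20 were measured by a probe set that names 1 gene and all 20 passed the filter. Their median log2 ratio was -0.04, against -0.02 over all genes past the filter, with 12 below 0 and 8 above, and 0 were 2-fold apart. Of all genes past the filter 52.6% were below 0, 2.01% were 2-fold lower and 1.01% 2-fold higher. A count of 0 among 20 is near those 2-fold shares. The type I receptor gene IFNAR1 read 192 and 137 (-0.49), and its partner chain gene IFNAR2 read 541 and 478 (-0.18). Their probe sets past the filter ranged from -0.73 to -0.15 for IFNAR1 and from -0.18 to 0.39 for IFNAR2. The kinase genes JAK2 (53.0 to 103, 0.96) and TYK2 (172 to 275, 0.68), both dim, and the type II receptor gene IFNGR1 (3590 to 5410, 0.59) were higher, and IRF7, a transcription factor gene of the interferon response, was lower (1195 to 845, -0.50). IRF9, a transcription factor gene whose product binds the ISRE, read 263 and 236 (-0.16). STAT2 had no probe set that names 1 gene in the annotation used here and was not analysed here.

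Most other interferon-stimulated genes did not share the low ratios of the IFITM genes. Of 46 listed genes that passed the filter, 26 were below 0 and 20 above, with a median of -0.02, equal to that of all genes past the filter at this precision. Those that were 2-fold lower numbered 2, the antiviral GTPase gene MX1 (185 to 70.6, -1.39) and RSAD2, which encodes viperin (144 to 71.3, -1.01), where 2.01% of all genes were. Both were dim genes, and the ratio of MX1 was lower than that of IFITM2 (-1.29). These values are those of the brightest probe set of each gene. Other probe sets past the filter reached -1.88 for PML, at 0.51 on its brightest, and -1.99 for SLFN5, at -0.44 on its brightest. TRIM22, an antiviral ligase gene, went from 75.7 to 52.1, and IFIT5, an RNA-binding effector gene, from 264 to 380 (0.53). Among the 26 brighter genes of this list 15 were below 0 and the median was -0.04. ISG15, a ubiquitin-like modifier gene, read 8026 and 7757 (-0.05), IFIT1, a sensor of viral RNA ends, read 2062 and 1721 (-0.26), and BST2, which tethers budding virus to the cell, read 2415 and 1917 (-0.33).

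The ISRE core seen in the IFITM1 and IFITM3 promoters was frequent in this list. It was present in 25 of the 41 listed genes with a promoter entry (61.0%). Of these 25, 23 passed the filter, with a median log2 ratio of -0.05, 14 of them below 0 and 1, MX1, 2-fold lower. The 14 genes of the list that passed the filter without the core had a median of 0.05, with 6 below 0. IFITM1 (-1.43) and IFITM3 (-1.64) were both lower than the lowest of the 23, MX1 at -1.39, though IFITM1 only slightly so. IFITM2 (-1.29), which had no promoter entry, was higher than MX1. A match is only these letters in this window.

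**Figure D4:**
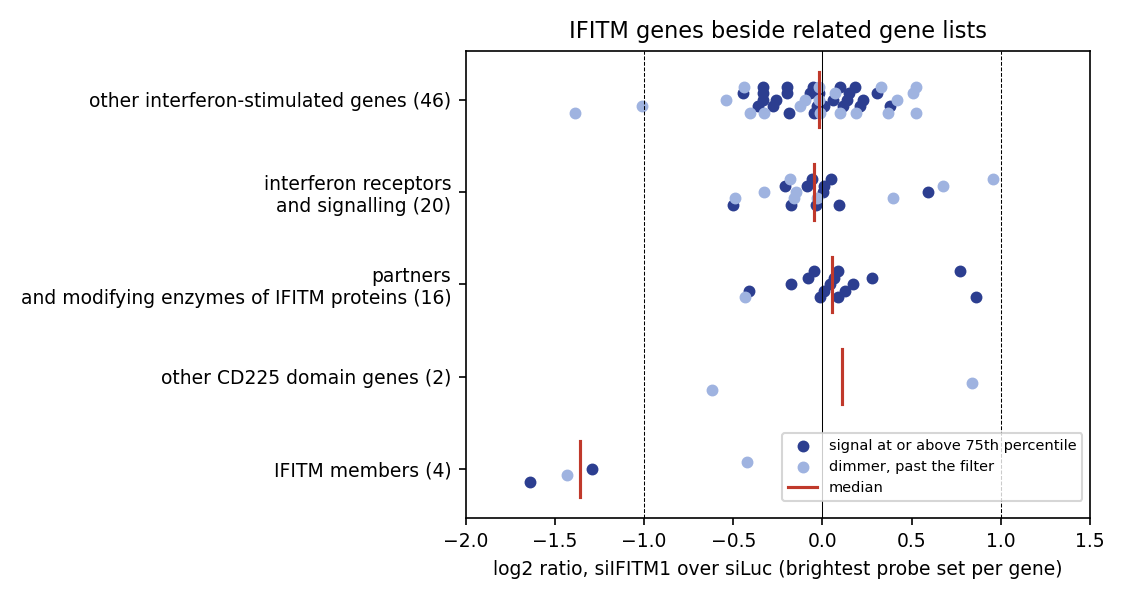
Log2 ratio (siIFITM1 over siLuc) of genes past the filter in 5 lists, 1 point per gene at its brightest probe set, dark for brighter and light for dimmer genes, with the list median in red and 2-fold lines dashed. IFITM1, IFITM2 and IFITM3 lie left of -1, and the medians of the 4 other lists lie between -0.04 and 0.11.

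Relatives with a CD225 domain outside the IFITM genes were dim. Of 7 listed genes 5 were measured and 2 passed the filter. TMEM91 read 192 and 125 (-0.62), and PRRT2, a presynaptic protein gene, read 44.2, below the filter floor, and 78.9 (0.84). SYNDIG1, SYNDIG1L and TRARG1 read from 29.8 to 52.7 with siLuc and from 21.7 to 42.1 with siIFITM1, all below the floor. Only TMEM91 had both signals above the floor, and it too was dim, so its ratio is to be read with caution.

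Genes of proteins that bind or modify IFITM proteins were near 0, with a few apart. Of 16 that passed the filter 10 were above 0 and 6 below, with a median of 0.05, and 0 were 2-fold apart. Of all genes past the filter 52.6% were below 0, 2.01% were 2-fold lower and 1.01% 2-fold higher. A count of 0 among 16 is near those 2-fold shares. CD81, a tetraspanin that forms a complex with IFITM1 at the cell surface, read 7302 and 7244 (-0.01), and CD9, another tetraspanin, read 14717 and 15388 (0.06). VAPA, an endoplasmic reticulum protein that binds IFITM3, was at 0.09. NEDD4, the ligase that ubiquitinates IFITM3, read 651 and 1182 (0.86), and CAV1, the caveolin gene, read 565 and 965 (0.77), with 0.94 at its other probe set past the filter. Both were among the brighter genes, where 0.18% of 7793 were 2-fold higher, and neither reached that line. The share of genes as high as these was not computed. Over brighter probe sets ending in _at, as theirs do, the SD of log2 ratios was 0.27. FYN, a kinase that phosphorylates IFITM3, read 1230 and 923 (-0.41), and ZDHHC2, a palmitoyltransferase gene, read 124 and 91.5 (-0.44). ZDHHC20, a palmitoyltransferase of IFITM3, was at -0.05, and SETD7, which methylates it, at 0.17. These values are those of the brightest probe set of each gene. Other probe sets past the filter reached 0.41 for ZDHHC20, 0.39 for CD9, -0.12 and 0.33 for VAPA, -0.70 for FYN and -0.74 for ZDHHC2.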

How the data were processed

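Total RNA of both samples was amplified to biotin-labelled cRNA and hybridised to single-colour Affymetrix arrays, per the labels' protocols. The deposited values are intensities on a linear scale, summarised with MAS5 per the submitters' processing notes; version, scaling target and detection calls are not given in the sources used here. No further scaling was applied. Log2 ratios are siIFITM1 over siLuc of the signals as deposited.

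Of the probe sets, 41091 named 1 gene in GEO's platform annotation and 1801 named more. Entrez identifiers gave current symbols from RefSeq's GRCh38.p14 table, and list genes were represented by their brightest probe set naming 1 gene. Neighbours in signal, in chromosomal order and in likeness, and up to 4 named genes per list by absolute ratio, followed fixed rules, and other list genes were named for their role. One gene fixed for a list is not reported here. Members and lists were chosen with earlier results of these data known. Alternatives were other scalings, pseudocount, floor, filters, fold lines and neighbourhoods. The calculation was tested on simulated data. Python 3.11.15, numpy 2.4.6, pandas 2.3.3, scipy 1.17.1, statsmodels 0.14.6, biopython 1.88 and matplotlib 3.10.9 were used. The number of arrays limits the precision.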

Additional observations from a re-analysis of the deposited data

How the results depend on the processing

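Under median centring, quantile normalization, a subtracted loess trend, a pseudocount of 32 and signals raised to the filter floor, the log2 ratios of the 4 IFITM1, IFITM2 and IFITM3 probe sets stayed between -1.64 and -1.02. The count of IFITM probe sets 2-fold lower was 5 of 7, 4 with the pseudocount or the floor, which 227886_at of IFITM10 then missed, and 1, IFITM3, at a 3-fold line. Ranks were moved by the choice of neighbours as follows. The share of neighbours at or below 1564573_at of IFITM10 was 70.8%, and 76.0% by siLuc signal. For 227886_at of IFITM10 it was 10.6%, 17.0% among probe sets ending in _x_at or _s_at and 15.8% by siLuc signal. For the probe set of IFITM2 and IFITM1 it was 0.20%, 0% among 200 neighbours, 0.60% among 1000, 1% among probe sets ending in _x_at or _s_at and 0.80% by siLuc signal. It was 0% for IFITM1, IFITM2 and IFITM3, except 0.20% for IFITM2 by siLuc signal, and for IFITM1 0.20% among the same endings and 0.40% by siLuc signal. The median of other interferon-stimulated genes was -0.02, and 0.015 after median centring. That of the CD225 relatives was 0.11 over the 2 genes past the filter, and -0.079 over the same genes with signals raised to the floor. With no filter it was -0.32 over all 5 measured genes. The cause was not tested. No paired analysis was possible because each siRNA has 1 array, so no replicate could be left out. None of the IFITM10 probe sets was a brighter one. Over the 7 probe sets, 35 recomputed ratios moved by less than the SD between probe sets of 1 gene at their signal, which is 1.66 below the filter. For 227886_at that SD is larger than its ratio of -1.52, so even its move to -0.0066 with the floor counted as small. The count therefore says little about this probe set.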
